A study of Homo sapiens and Mus musculus with 25 samples.

Results

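The 10 genes described here encode Polycomb subunits and the demethylases of lysine 27 of histone H3 (H3K27). They were chosen by name from 19962 protein-coding genes on chromosomes 1 to 22 and X, and all 10 were found. They are EZH1, EZH2, SUZ12 and EED of Polycomb repressive complex 2 (PRC2) with its accessory subunit JARID2, then RING1, RNF2 and BMI1 of Polycomb repressive complex 1 (PRC1), and the H3K27 demethylases KDM6A and KDM6B. Their promoter peaks, peak widths and peak values were read in every K562 peak list, H3K27me3 included.

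PRC2 places methyl groups on H3K27 through EZH2 or EZH1, with EED and SUZ12 as required partners. PRC1 ubiquitinates histone H2A through RING1 or RNF2 and includes forms that bind H3K27me3. KDM6A and KDM6B remove H3K27 methylation. H3K4me3 lies over the starts of active or poised genes, H3K4me1 marks enhancers and the flanks of active promoters, and the joint presence of H3K4me3 and H3K27me3 is known from developmental genes in embryonic stem cells.

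All chromatin came from K562, an established cell line from a chronic myeloid leukaemia used as an erythroid progenitor model. It was untreated, and each library was profiled by ChIP-seq with barcoded semi-synthetic nucleosomes added as an internal calibration standard. The 22 K562 peak lists used here hold 5 H3K4me1, 4 H3K4me2 and 8 H3K4me3 antibodies, 1 H3K27me3 antibody (CST 9733), 1 H3K9me3 antibody (309M3B) and 3 lists that the authors corrected for off-target capture. Of the 25 samples in the series, 2 K562 inputs and 4 from mouse stem cells were left out. The peak lists carry no read counts, so a window with no listed peak does not show an unmodified promoter.

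The lists differ widely in extent. H3K4me1 lists covered 723 to 1593 Mb and H3K4me3 lists 18.7 to 769 Mb, the highest being Abcam ab8580, followed by EMD Millipore 07-473 at 165 Mb. The Active Motif 39635 H3K4me1 list held 39010 peaks, with a median promoter peak width of 77994 bases, against 5026 to 14463 bases in the other H3K4me1 lists. Diagenode C15410003 and EpiGentek A-4033-050 were run beside another input (AR17) than the other 15 H3K4 libraries (AR16) and listed the fewest promoters, 40.2% and 33.5% of all genes. The H3K27me3 list covered 2029 Mb and 73.9% of promoters, and the H3K9me3 list covered 2834 Mb and 98.7% of promoters. Of 8 erythroid markers, 7 held a promoter peak in at least 5 of the 8 H3K4me3 lists, and of 6 lymphoid markers none did.

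Promoter sequences are shown for 4 genes on which the results turn. Each line gives the 250 bases upstream of a RefSeq start (GRCh38.p14), 5′ to 3′ on the gene's strand, with matches to searched motifs in capitals. EZH2 (chr7:148884292-148884541, minus strand) and JARID2 (chr6:15245819-15246068 and, in the intron after exon 1, chr6:15248605-15248854, plus strand) were in all 17 H3K4 lists. SUZ12 (chr17:31936757-31937006, plus strand) and KDM6A (chrX:44872938-44873187, plus strand) split the antibodies. Apart from the intronic JARID2 sequence, each lies upstream of exon 1.
EZH2: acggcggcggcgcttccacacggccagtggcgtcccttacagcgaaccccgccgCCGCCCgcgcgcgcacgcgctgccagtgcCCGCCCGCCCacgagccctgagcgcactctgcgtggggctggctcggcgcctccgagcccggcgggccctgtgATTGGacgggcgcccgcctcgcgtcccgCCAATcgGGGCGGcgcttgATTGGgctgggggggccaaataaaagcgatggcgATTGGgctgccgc
JARID2: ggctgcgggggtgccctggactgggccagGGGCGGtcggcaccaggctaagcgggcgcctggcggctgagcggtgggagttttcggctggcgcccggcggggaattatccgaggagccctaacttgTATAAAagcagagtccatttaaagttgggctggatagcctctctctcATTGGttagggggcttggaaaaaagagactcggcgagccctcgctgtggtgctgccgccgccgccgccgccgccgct
JARID2 downstream start: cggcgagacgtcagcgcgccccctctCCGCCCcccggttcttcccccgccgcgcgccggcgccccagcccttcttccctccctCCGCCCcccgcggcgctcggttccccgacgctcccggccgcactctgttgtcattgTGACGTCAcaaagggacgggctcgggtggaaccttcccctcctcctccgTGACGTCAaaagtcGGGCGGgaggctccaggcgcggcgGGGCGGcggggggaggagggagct
SUZ12: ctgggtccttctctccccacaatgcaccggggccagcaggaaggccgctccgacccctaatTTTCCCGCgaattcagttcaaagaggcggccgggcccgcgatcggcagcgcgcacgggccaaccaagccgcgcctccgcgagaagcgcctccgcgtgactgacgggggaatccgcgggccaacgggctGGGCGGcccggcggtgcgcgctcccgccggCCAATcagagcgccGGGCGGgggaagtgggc
KDM6A: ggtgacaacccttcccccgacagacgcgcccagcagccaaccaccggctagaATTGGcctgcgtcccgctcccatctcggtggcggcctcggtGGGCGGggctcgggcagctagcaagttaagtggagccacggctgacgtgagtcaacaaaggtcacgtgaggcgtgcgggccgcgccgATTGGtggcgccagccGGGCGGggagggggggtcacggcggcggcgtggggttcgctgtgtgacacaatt

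The motifs were searched on both strands as the TATA box TATAAA, the CCAAT box CCAAT, the GC box GGGCGG, the ETS motif CCGGAAG, the E2F motifs TTTGGCGC or TTTCCCGC, the CRE motif TGACGTCA, with the NRF1 motif, and copies were allowed to overlap. EZH2 held 4 copies of CCAAT, 3 of them read as ATTGG on the printed strand, and 4 of GGGCGG, 2 of which overlap. CCAAT occurred in 32.0% and GGGCGG in 42.6% of 35116 RefSeq promoters of the same length. SUZ12 held TTTCCCGC, a match to an E2F motif found in 1.39% of promoters, 189 to 182 bases before its start. JARID2 held TATAAA 124 bases before its canonical start, as did 10.7% of promoters somewhere in the window, and 2 copies of TGACGTCA before its downstream start (1.65% of promoters). KDM6A held 2 copies each of CCAAT and GGGCGG. These are matches of letters and not measured sites. Over the 2 kb promoter window, EZH2 held 260 CpG dinucleotides, BMI1 265 and KDM6A 216, against a median of 96 over all genes, and the other 7 members held between 100 (KDM6B) and 147 (RNF2).

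Most members held a promoter peak in nearly every H3K4 list. A promoter here is the window from 1 kb upstream to 1 kb downstream of the canonical GENCODE transcription start site (TSS). EZH1, EZH2, EED, JARID2 and RING1 were in all 17 H3K4 lists (5 of 10 members, against 27.9% of all genes). RNF2 and BMI1 were in 16, SUZ12 in 11, and KDM6A and KDM6B in 9. Of 170 pairs of member and list, 146 held a peak. Per list, a mean of 8.4 (H3K4me1), 9.25 (H3K4me2) and 8.375 (H3K4me3) members held one, against 78.0%, 76.0% and 54.9% of all genes. In at least 5 of the 8 H3K4me3 lists, 9 of the 10 members held a peak, against 52.9% of all genes, and the exception was SUZ12 with 2.

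**Figure D1:**
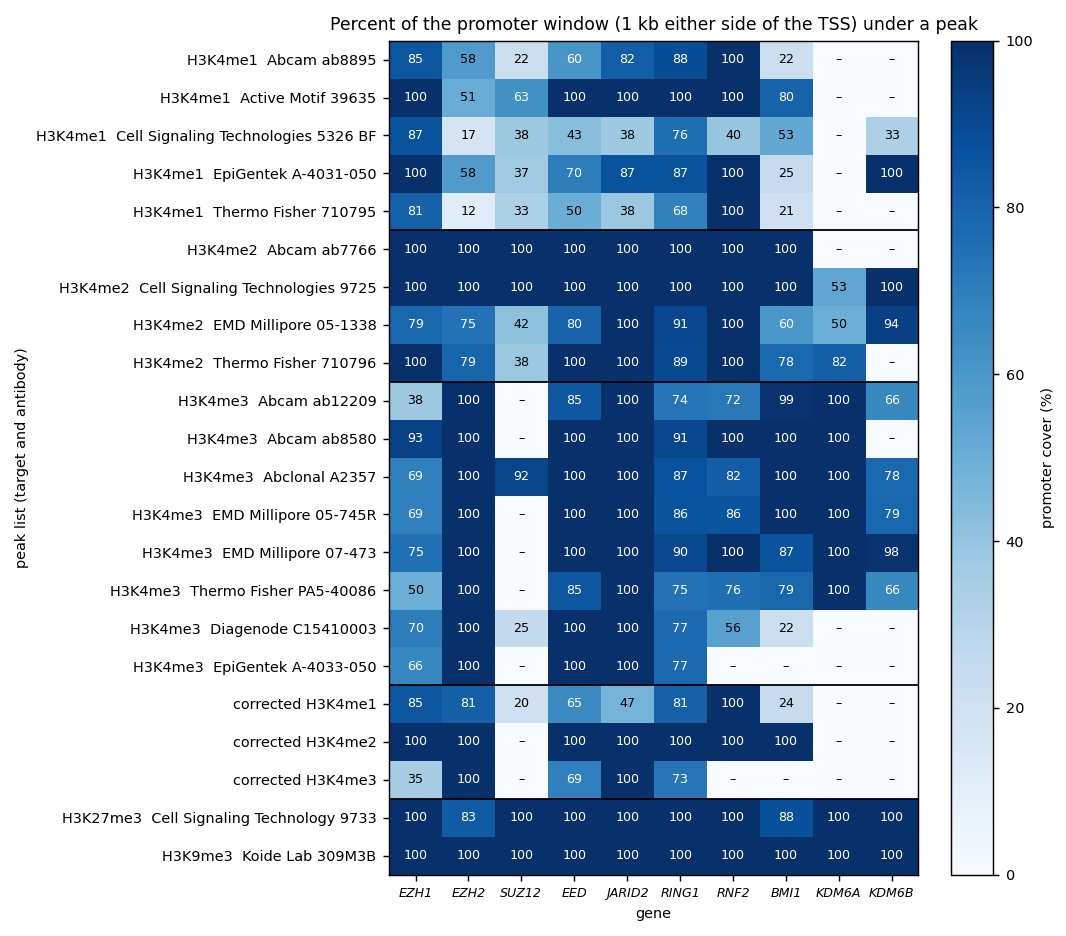
Percent of the promoter window under a peak for the 10 genes (columns) in the 22 K562 peak lists (rows, grouped by target); a dash stands for no peak. EZH2 and JARID2 are at 100% in all 8 H3K4me3 lists, KDM6A is empty in all 5 H3K4me1 lists, and the H3K27me3 row is filled in every column.

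The comparisons of targets use promoter cover, the percent of the 2 kb window under a peak. Antibodies are the replicates, and targets were compared by exact two-sided permutation tests with Benjamini-Hochberg adjustment over all 19962 genes and a threshold of 0.05. Between H3K4me1 and H3K4me3 lists, cover differed at 4 members, against a background of 39.9% of all genes: it was higher with H3K4me1 at 1 member (27.7% of all genes) and lower at 3 (12.2%). The median difference, H3K4me1 minus H3K4me3, was -26.6 percentage points over the 10 members, 7.55 over all genes and -2.80 over 37 other Polycomb genes. Between H3K4me2 and H3K4me3, and between H3K4me1 and H3K4me2, 0 genes of any kind passed after adjustment (0 of all genes), although 5525 and 2891 genes, 3 members among each, had an unadjusted exact p under 0.05.

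EZH2, the main catalytic subunit of PRC2 in dividing cells, was the only member whose H3K4me1 and H3K4me3 cover did not overlap. Its promoter window was at 100% cover in all 8 H3K4me3 lists. In the H3K4me1 lists it was at 58.1% (ab8895), 50.6% (39635), 17.2% (5326 BF), 58.1% (A-4031-050) and 11.7% (710795), so the groups did not overlap. The difference was -60.9 percentage points (39.1% ± 22.8, SD, n = 5, against 100% ± 0, n = 8), with an adjusted p of 0.00643 by the exact permutation test. The exact p was the smallest that this test can give (0.000777), which any gene whose groups do not overlap shares. How large a share of all genes that is, is not given here, so the separation is not shown to be particular to EZH2. With H3K4me2 it was at 100% in ab7766 and 9725, 79.4% in 710796 and 74.5% in 05-1338. The adjusted p became 0.0556 when only the 8-cycle libraries were used, at the same difference, and the difference closed to -0.0525 in a window of 2.5 kb either side, where H3K4me1 peaks on the flanks enter.

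The H3K4me3 peak over EZH2 was broad. It spanned 2750 to 14004 bases with a median of 3970, at the 84.1st to 94.0th percentile of width among promoter peaks of the same list. Its value in column 4 of the authors' lists, a calibrated signal without a stated unit, was 35.8 to 46.7 in the 5 H3K4me3 lists that give one, at the 48.3rd to 69.6th percentile of those lists. In the corrected H3K4me3 list the peak was 3085 bases wide, from 1400 bases upstream to 1684 downstream, with a value of 51.8. In the single-antibody H3K4me1 lists the peaks stopped short of the TSS on either side, and 3 of 5 had no peak base within 250 bases of it. The corrected H3K4me1 list differed: its widest peak there ran from 40 bases upstream to 50794 downstream and so covered the TSS.

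EZH1, the second H3K27 methyltransferase, expressed more in resting cells, differed in the opposite direction. Its cover was 84.9%, 100%, 86.8%, 100% and 80.6% in the H3K4me1 lists, in the order given above. In the H3K4me3 lists it ran from 37.6% (ab12209) through a median of 68.9% to 93.4% (ab8580), so the groups overlapped. The means were 90.4% ± 9.0 (n = 5) and 66.3% ± 16.6 (n = 8), a difference of 24.2 points (exact permutation test, adjusted p = 0.0369). That call was lost in the same exact test without the AR17 libraries (adjusted p = 0.0694), with 8-cycle libraries only (adjusted p = 0.129) without any single H3K4me1 list (0.0523 to 0.0808) and without A2357, 05-745R, PA5-40086 or Diagenode (0.0504 to 0.0518). In a window of 0.5 kb the difference was -0.0699 points (adjusted p = 1 by the exact permutation test). The H3K4me3 peak of EZH1 was 753 to 3441 bases wide, at the 9.26th to 41.8th percentile of width, and its corrected H3K4me3 peak was 699 bases wide, lying almost wholly downstream (from -25 to 673), with a value of 59.6.

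EED reads H3K27me3 and stimulates the PRC2 enzyme. Its H3K4me3 cover was 84.6% in ab12209, 85.0% in PA5-40086 and 100% in the other 6 lists. With H3K4me1 it was 60.3%, 100%, 42.6%, 70.0% and 50.3%, and the Active Motif list alone reached the H3K4me3 level. The difference was -31.6 points (64.6% ± 22.3, n = 5, against 96.2% ± 7.0, n = 8; exact permutation test, adjusted p = 0.0250). In the same exact test it was lost within the AR16 libraries (-30.3 points, adjusted p = 0.0516), with 8-cycle libraries only (0.129) and without ab8895, 5326 BF or 710795 (0.0523 to 0.0562). The 5′ end of the annotated EED gene lies 43541 bases upstream of the canonical TSS, and at that place H3K4me1 cover was the higher by 82.5 points (exact permutation test, adjusted p = 0.0206), and in a window of 2.5 kb around the canonical TSS the difference was 11.2 points (0.351), so the call holds for the 1 kb window of the canonical start.

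SUZ12, the scaffold of PRC2, was the member with an H3K4me3 peak in the fewest lists. Only Abclonal A2357 (91.7% cover, a 3206-base peak of value 58.8) and Diagenode C15410003 (25.4%, a 509-base peak) listed it, and the other 6 H3K4me3 lists gave 0%. The A2357 value was not low: it stood at the 85.1st percentile of promoter peaks in that list. All 5 H3K4me1 lists held a peak, with cover of 22.2%, 62.5%, 37.8%, 37.0% and 33.0%, and 4 of them ended upstream of the TSS, between 557 and 245 bases before it. H3K4me2 covered 100% in ab7766 and 9725, 41.7% in 05-1338 and 38.0% in 710796. The H3K4me1 and H3K4me3 means, 38.5% ± 14.8 and 14.6% ± 32.4, did not differ beyond the spread between antibodies (23.8 points, exact permutation test, adjusted p = 0.212), but they did without A2357 (34.9 points, adjusted p = 0.0176).

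The SUZ12 promoter has a near-identical copy elsewhere in the genome, which may make its values less certain. An alignment placed 85.3% of its 2 kb window at chr17:30730929-30732610, with 95.5% identity, where GENCODE annotates the start of the pseudogene SUZ12P1. Reads from either place can be hard to assign, and how the authors treated them is not given in the sources used here. No other member's window had such a copy. At the copy itself, 0 of 8 H3K4me3 lists, 1 of 4 H3K4me2 lists, 3 of 5 H3K4me1 lists and 0 of 3 corrected lists held a peak. The H3K27me3 list held no peak there, and the H3K9me3 list held a peak. The part of the copy in the SUZ12 result was not tested.

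JARID2, a PRC2 accessory subunit that helps recruit the complex, had the widest H3K4me3 peak of the members by median width (5860 bases). Its window was at 100% cover in all 8 H3K4me3 lists and all 4 H3K4me2 lists. In the H3K4me1 lists it was 81.9%, 100%, 37.6%, 86.6% and 38.1%, a difference of -31.2 points (68.8% ± 29.1, n = 5, against 100% ± 0, n = 8; exact permutation test, adjusted p = 0.0234). In the same exact test the call was lost with 8-cycle libraries only (adjusted p = 0.129), without 5326 BF (0.0535) and in windows of 0.5 kb (0.0721) or 2.5 kb (0.0578). Its H3K4me3 peak spanned 5223 to 12161 bases, at the 90.9th to 99.1st percentile of promoter peak width in the 8 lists, and 5069 bases at the 99.0th percentile in the corrected list. The value was not high in the same way: 38.8 in the corrected list, at the 28.0th percentile, and 31.2 to 50.6 in the single-antibody lists, at the 39.3rd to 65.5th percentile. The corrected peak ran from 1679 bases upstream to 3389 downstream, so it also covers the downstream RefSeq start at 2786 bases, shown above. All 17 H3K4 lists held a peak within 250 bases of that start.

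**Figure D2:**
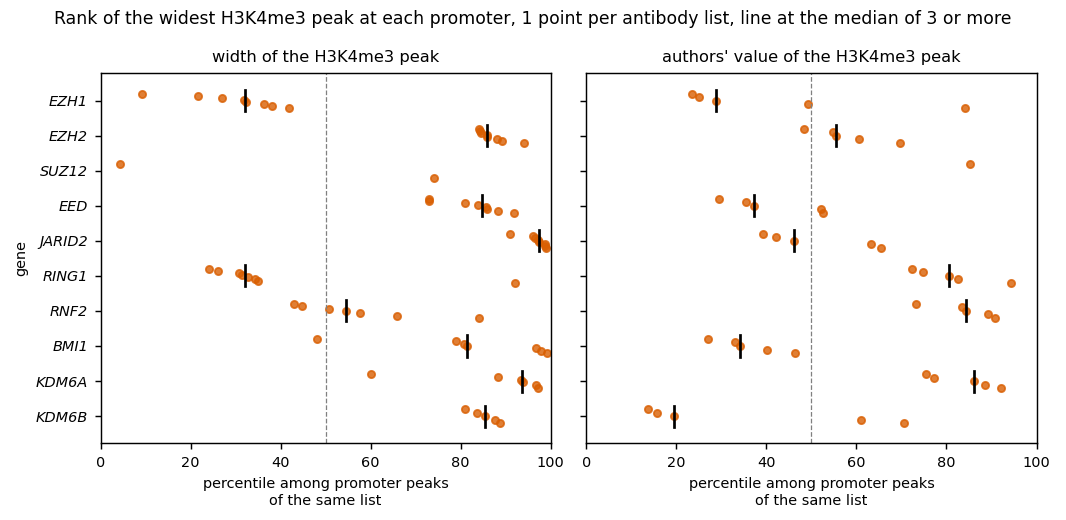
Percentile of width (left) and of the authors' value (right) of the widest H3K4me3 peak at each promoter among promoter peaks of the same list; each point is an antibody list and the line is the median of 3 or more. JARID2 lies at or above the 90.9th percentile of width in every list and EZH1 at or below the 41.8th, whereas RNF2 and RING1 rank higher in value than in width by their medians.

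RING1 and RNF2 are the alternative ubiquitin ligases of PRC1. RING1 cover was alike in the H3K4me1 lists (88.3%, 100%, 75.9%, 86.6% and 68.5%) and the H3K4me3 lists (lowest 73.5%, median 81.8%, highest 90.9%), and the groups overlapped. The difference of 1.7 points did not pass (exact permutation test, adjusted p = 0.883), and in a window of 0.5 kb either side it was -32.3 points (adjusted p = 0.0236). In a window of 2.5 kb it was 52.96 points in the other direction (exact permutation test, adjusted p = 0.00515). Its H3K4me3 peak was short and of high value. It was 1471 to 2193 bases wide in 7 lists and 12714 in ab8580, and its value of 38.8 to 56.6 stood at the 72.4th to 94.4th percentile of the 5 lists with values. The TSS of HSD17B8 lies 3845 bases upstream, which is where a separate H3K4me3 peak stands in the profile of peak positions.

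RNF2 was at 100% cover with 4 of 5 H3K4me1 antibodies and at 39.6% with 5326 BF. All 4 H3K4me2 lists gave 100%. H3K4me3 cover ran from 0% in EpiGentek A-4033-050 through a median of 78.9% to 100%, so the groups overlapped and the difference of 16.5 points did not pass (exact permutation test, adjusted p = 0.536). It was 28.6 points without 5326 BF (adjusted p = 0.183 by the same exact test) and passed in a window of 2.5 kb, at 46.4 points (0.0246). The H3K4me3 value at RNF2 was 41.5 to 61.3, at the 73.3rd to 90.8th percentile of its lists. No corrected H3K4me3 peak lay in the window, although ab12209 and ab8580, both of which entered the correction, listed peaks of 1860 and 9780 bases. BMI1 and KDM6A likewise had peaks in both lists and no corrected H3K4me3 peak. The corrected H3K4me3 list held 18.1% of all promoters, against 51.7% in ab12209 and 75.3% in ab8580.

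BMI1, the PCGF subunit of canonical PRC1, ranged widely among antibodies of the same target. H3K4me1 cover was 21.5%, 80.1%, 52.7%, 24.6% and 20.6%. H3K4me3 cover was 0% in EpiGentek A-4033-050, 22.1% in Diagenode and between 79.0% and 100% in the 6 AR16 libraries. Over all libraries the difference of -33.4 points did not pass (39.9% ± 26.1 against 73.3% ± 39.6; exact permutation test, adjusted p = 0.212). Within the AR16 libraries it was -54.1 points (exact permutation test, adjusted p = 0.0247), and in a window of 2.5 kb over all libraries it was 12.8 points (0.526). The H3K4me2 value at BMI1 was high within each of the 4 lists, at the 86.0th to 96.1st percentile, and 40.7 in the corrected H3K4me2 list (92.6th percentile). The upstream readthrough gene COMMD3-BMI1 starts 4690 bases before the BMI1 TSS, and peaks were not assigned to either transcript.

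KDM6A, an X-linked demethylase that is also a subunit of COMPASS-type H3K4 methyltransferase complexes, had no H3K4me1 promoter peak in any of the 5 lists. H3K4me3 covered the whole window in the 6 AR16 lists and 0% in both AR17 lists. H3K4me2 cover was 0% (ab7766), 53.2% (9725), 49.7% (05-1338) and 81.5% (710796). The difference of -75.0 points between H3K4me1 (0% ± 0, n = 5) and H3K4me3 (75% ± 46.3, n = 8) missed the threshold (exact permutation test, adjusted p = 0.0512). Within the AR16 libraries it was -100 points (exact permutation test, adjusted p = 0.0177), and without either AR17 list alone -85.7 points (0.0432 and 0.0410). The H3K4me3 peak was 4276 to 5916 bases wide in those 6 lists, at the 60.1st to 97.1st percentile of width.

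No corrected list held a peak in the 1 kb KDM6A promoter window. A corrected H3K4me1 peak of 65185 bases (value 35.6) began 1303 bases past the TSS, and corrected H3K4me1 covered 54.2% of the gene. The empty promoter window coincides with low coverage of the X chromosome: the corrected H3K4me3 list held a peak at 0.116% of X promoters against 18.9% of autosomal ones, and the H3K4me1 lists at 1.40% to 43.8% of X promoters against 73.8% to 86.0%. In the 8 H3K4me3 lists the shares were 8.85% to 40.3% on X and 34.6% to 77.6% on autosomes. The part of the chromosome in the KDM6A result was not tested.

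KDM6B, the stress- and signal-induced demethylase, likewise had no corrected peak in its promoter window, while corrected H3K4me1 covered 24.4% of the gene. H3K4me3 cover was 66.3% (ab12209), 78.4% (A2357), 79.3% (05-745R), 98.5% (07-473) and 66.3% (PA5-40086), and 0% in ab8580, Diagenode and EpiGentek A-4033-050. H3K4me1 was listed by 5326 BF (32.6%) and A-4031-050 (100%) only, and H3K4me2 by 9725 (100%) and 05-1338 (93.6%) only. The difference of -22.1 points between H3K4me1 and H3K4me3 did not pass (26.5% ± 43.4 against 48.6% ± 41.5; exact permutation test, adjusted p = 0.521). Its H3K4me3 peak was wide, at the 81.0th to 88.8th percentile, while its value of 18.4 to 44.4 ran from the 13.6th to the 70.5th. A further RefSeq start lies 5700 bases downstream. Within 250 bases of it, 4 of 5 H3K4me1 lists, 1 of 4 H3K4me2 lists and 0 of 8 H3K4me3 lists held a peak. The corrected H3K4me1 list also held one there.

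The shape of the marks around the TSS separated the targets at more members than cover did. For each list, the mean cover of the flanks (1.5 to 2.5 kb either side) minus the cover of the core (250 bases either side) is positive where a mark avoids the start and negative where it sits on it. This value was higher for H3K4me1 than for H3K4me3 at 8 of 10 members (background 51.5% of all genes in either direction, 49.4% with H3K4me1 higher) and lower at 0 (2.06% of all genes). The median difference was 91.2 points over the members, 46.1 over all genes and 80.4 over the 37 other Polycomb genes, of which 31 were called, all higher.

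EZH1, EZH2 and RING1 had groups that did not overlap, at 112.8, 148.2 and 147.4 points, each with an adjusted p of 0.00403 by the exact permutation test. Each exact p was the smallest that the test can give (0.000777), as at any gene whose groups do not overlap. The share of all genes with such groups is not given here. At EZH2 the 5 H3K4me1 lists gave 100, 92.6, 100, 76.2 and 100 points, and the H3K4me3 lists ran from -100 through a median of -50 to -4.60. At RING1 the H3K4me1 lists gave 46.7, 0, 96.2, 53.7 and 93.0 points, and the H3K4me3 lists from -100 (also their median) to -15.9. Differences at EED (102.8 points, adjusted p = 0.00765), BMI1 (108.8, 0.00912), RNF2 (79.6, 0.0292), KDM6B (49.5, 0.0333) and KDM6A (41.5, 0.0266) passed as well by the exact test.

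JARID2 (37.3 points, adjusted p = 0.0798 by the exact permutation test) and SUZ12 (37.1 points, 0.134) did not pass. SUZ12 passed without Active Motif 39635, at 57.0 points (exact permutation test, adjusted p = 0.00661), and JARID2 was at 22.1 points without 710795 (0.226). At JARID2 the H3K4me3 domain reached into the flanks, with a mean flank cover of 79.6% ± 14.2 (n = 8). Removing single lists ended the call at KDM6B in 10 of the 13 cases, at RNF2 in 5 and at KDM6A in 2. With 8-cycle libraries only, the calls at EZH1, EZH2 and RING1 were left. At RNF2 the H3K4me1 lists other than 5326 BF gave 0 points, and without 5326 BF the difference was 61.3 points (exact permutation test, adjusted p = 0.0925).

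**Figure D3:**
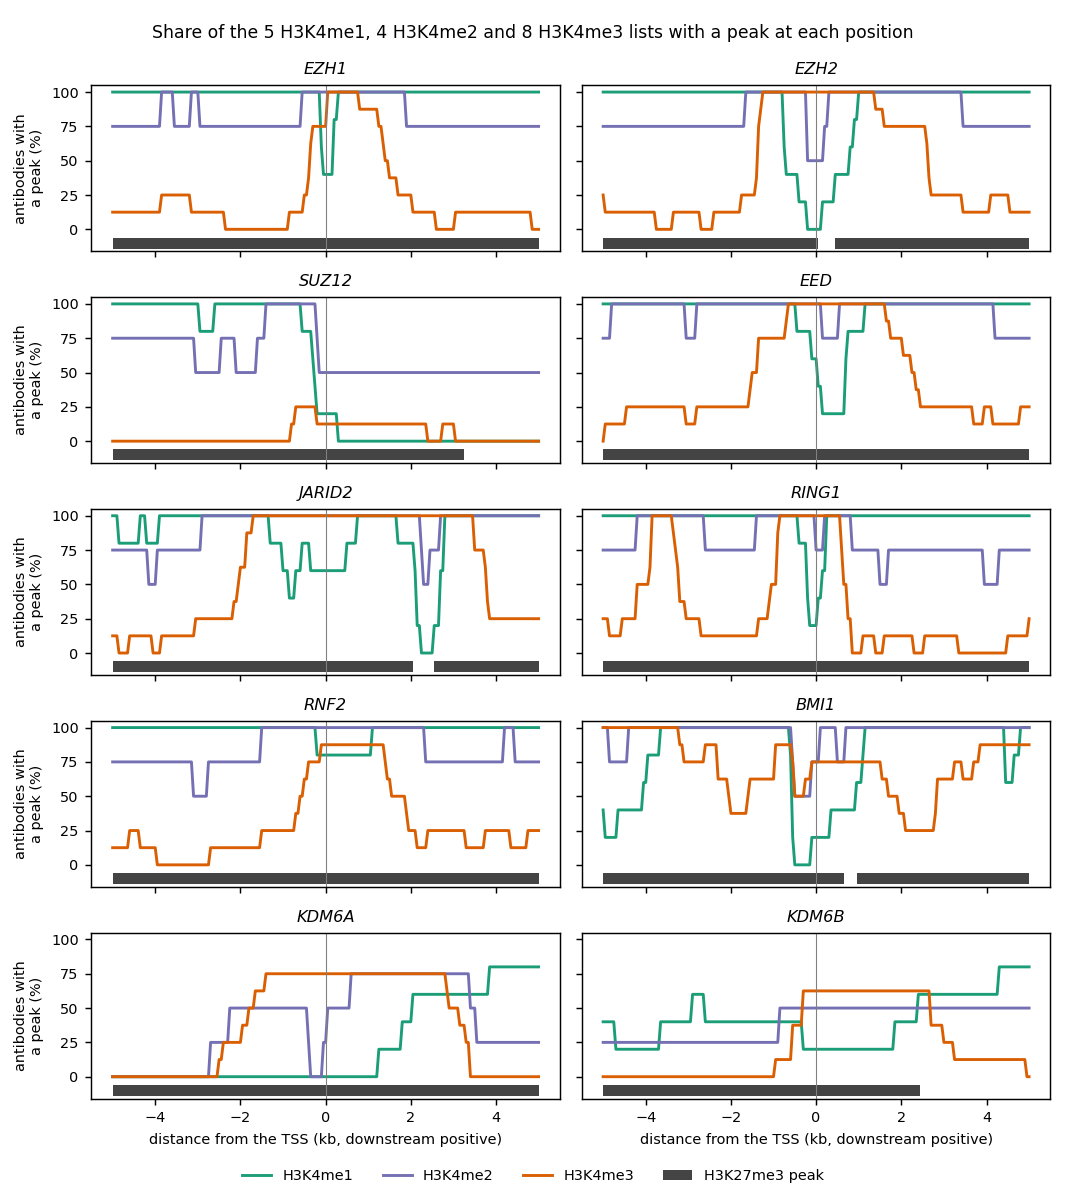
Share of antibody lists with a peak at each position from 5 kb upstream to 5 kb downstream of the TSS, by target, with the H3K27me3 peaks as a bar under the lines. H3K4me3 (orange) rises over the TSS where H3K4me1 (green) dips at EZH1, EZH2, EED, RING1 and BMI1, and the H3K27me3 bar breaks close to the TSS at EZH2 and BMI1.

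**Figure D4:**
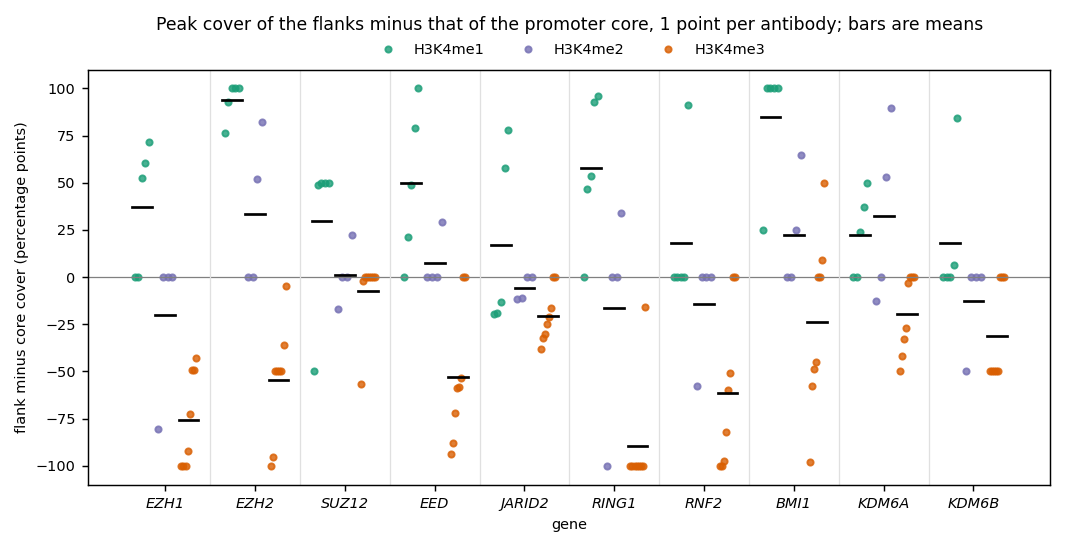
Flank minus core cover in percentage points for each gene and target; each point is an antibody and bars are means. H3K4me1 points lie at or above 0 at every gene except SUZ12 and JARID2, and H3K4me3 points lie at or below 0 at every gene except BMI1.

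The authors' corrected lists gave a narrower picture. Corrected H3K4me3 peaks lay at EZH1, EZH2, EED, JARID2 and RING1 (5 of 10 members, 18.1% of all genes), and at 4 of the 37 other Polycomb genes. Their values were 59.6, 51.8, 50.8, 38.8 and 48.5 against a list median of 45.0 over promoter peaks, and their widths 699, 3085, 2015, 5069 and 1785 bases against 1780. Corrected H3K4me2 peaks lay at 7 members (55.1% of all genes), those 5 with RNF2 and BMI1, and corrected H3K4me1 peaks at 8 (71.4%), those 7 with SUZ12. By the widest corrected H3K4me1 peak in each promoter window, the value ran from 15.7 at RING1 (24.3rd percentile of promoter peaks) to 33.0 at EZH2 (96.2nd percentile). Narrower peaks in the same windows had values of 22.0 at EZH1, 16.6 at EZH2, 30.9 at EED, 14.0 at JARID2 and 31.7 at RING1. These lists were computed from ab8895, ab7766, ab12209 and ab8580, so they are not further replicates.

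H3K27me3, the product of PRC2 itself, was listed at all 10 promoters (73.9% of all genes) and over the whole window at 8 (62.8%). Of the other Polycomb genes it was listed at 25 of 37, and of the lymphoid and erythroid markers at 6 of 6 and 5 of 8. For the X-linked KDM6A the background is higher, as 90.5% of X promoters held an H3K27me3 peak against 73.2% of autosomal ones. With 1 list there is no replicate error, and a list that covers most promoters gives little contrast between genes. Among promoters with at least 5 of 8 H3K4me3 lists 76.9% held an H3K27me3 peak, and among the rest 70.6%. The 9 members in at least 5 H3K4me3 lists therefore all held both kinds of peak, as did 40.6% of all genes, and joint presence on the same chromosome copy was not measured.

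The H3K27me3 list was broken inside the promoter window at 2 members. At EZH2 no H3K27me3 was listed between 98 and 438 bases downstream, and at BMI1 between 677 and 922, and both promoters were at 83.1% and 87.8% cover in that order. At JARID2 the peak that began 55916 bases upstream ended 2084 bases downstream, and H3K27me3 was listed again before the downstream RefSeq start at 2786 bases. The gene with the longest peak was RING1 (385937 bases) and the shortest KDM6A (36173 bases), with ends 16145 bases upstream and 20027 downstream of its TSS.

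Over whole genes the members split. H3K27me3 covered 100% of EED, RING1 and RNF2, 97.7% to 99.6% of EZH2, JARID2, BMI1 and KDM6A, and 79.3% of EZH1. Only 9.2% of SUZ12 and 12.0% of KDM6B were covered, and the peaks over their starts ended 3290 and 2474 bases past the TSS. The median over all genes was 99.4%, and 43.1% of genes were wholly covered. H3K4me1 was also low over these genes, with means over 5 lists of 13.8% (6.78% to 28.2%, n = 5) at SUZ12 and 31.6% (0% to 73.5%, n = 5) at KDM6B against 50.9% (0% to 65.9%, n = 5) at KDM6A and 81.6% to 97.2% at the other 7. The 0% values at KDM6B and KDM6A were both in the Active Motif 39635 list. The copy search at SUZ12 covered only the 2 kb window of its start, and the part of a copy in its low gene cover was not tested.

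**Figure D5:**
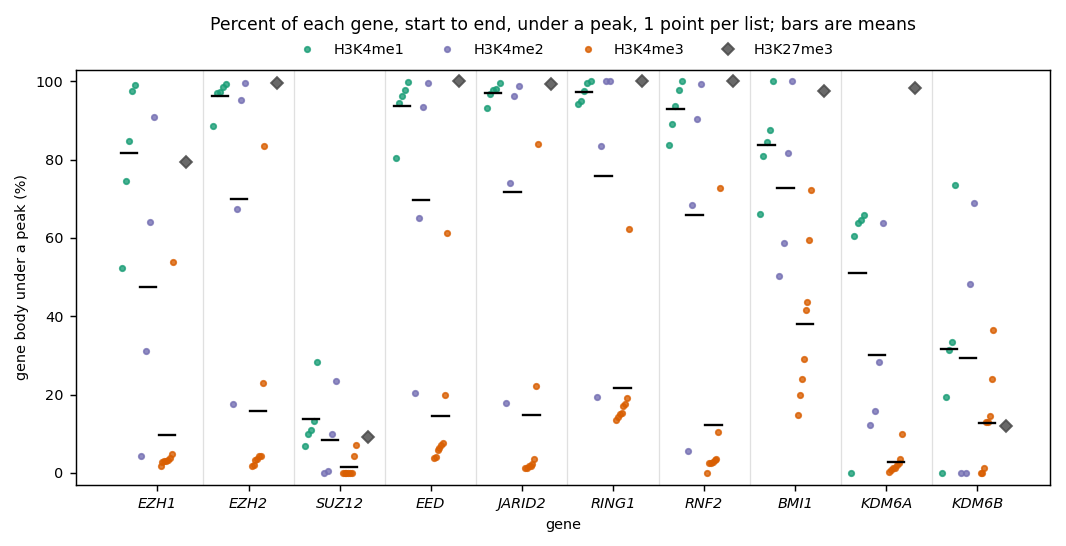
Percent of each gene from start to end under a peak; circles are antibody lists by target with their means as bars, and the diamond is the single H3K27me3 list. SUZ12 and KDM6B have the lowest H3K27me3 diamonds (9.2% and 12.0%), and H3K4me1 circles exceed most H3K4me3 circles at the other genes.

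Other Polycomb genes, from a list of 37 with PRC2 accessory, PRC1 and H2A deubiquitinase subunits, were measured in the same way. Of these, 9 were in all 17 H3K4 lists (27.9% of all genes) and 29 in at least 5 of the 8 H3K4me3 lists (52.9%). Between H3K4me1 and H3K4me3, cover was called at 9 of 37 (39.9% of all genes), with 4 higher and 5 lower. The genes in the most lists with the highest mean cover were PCGF1, E2F6 and RBBP4, each in 17 lists, at 94.2%, 93.1% and 91.6%. PCGF1 and E2F6 belong to variant PRC1, and RBBP4 is the histone-binding subunit of PRC2. The fewest lists held EZHIP (1), an inhibitor of EZH2, AUTS2 (3) and BCORL1 (4), both variant PRC1 subunits.

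An H3K27me3 promoter peak lay at RBBP4, RBBP7, PHF1, MTF2, PHF19, EPOP and EZHIP among the PRC2 genes. Canonical PRC1 genes with one included CBX2, CBX6, PHC2, PHC3 and SCMH1, and it lay in variant PRC1 at PCGF1, YAF2, KDM2B, BCOR, BCORL1, MGA, E2F6, AUTS2 and DCAF7. The deubiquitinase subunits ASXL1, ASXL2 and ASXL3 held one and BAP1 did not.

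For each member the gene elsewhere in the genome with the most similar cover over the 17 H3K4 lists was found. JARID2 was closest to ACADM (mean absolute difference 1.20 percentage points), EED to SFT2D1 (2.10), EZH2 to GSK3A (2.30), EZH1 to VPS51 (2.61), RING1 to AKR1A1 (3.20), RNF2 to SDCBP (3.84) and KDM6B to UBE2G1 (4.12). KDM6A was closest to RPL24 (5.70), BMI1 to TACC3 (8.22) and SUZ12 to GNAQ (8.63). The median gene lay 31.9 to 48.8 points away from a member. Members were left out of the genes searched, so the likeness of members to each other was not measured.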

How the data were processed

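The authors deposited K562 peak positions as 22 lists on GRCh38 (hg38). Bowtie2, SAMtools, bedtools and MACS2 are named by the submitters' processing notes. Versions, calling settings and filters: not given in the sources used here. For 17 lists the file also holds a signal per peak, deposited without a header and used within a list only. Each antibody has its own list.

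Gene starts were taken from GENCODE release 44 and sequences from RefSeq (GRCh38.p14), and copies were searched with minimap2 2.31. Cover was computed with NumPy 2.4.6 and pandas 2.3.3. Promoter cover and flank minus core cover were tested by exact permutation over antibodies (smallest p 0.000777 for 5 against 8, 0.00202 for 4 against 8 and 0.00794 for 5 against 4), and the script was tested on simulated data. No label names separate cultures, so these p-values reflect differences between antibody libraries and not between cultures. Input and cycle number also differ between the targets. Both AR17 libraries are H3K4me3, and all 5 H3K4me1 libraries had 8 cycles and the AR16 input. Amplification took 12 cycles for ab12209, A2357, PA5-40086 and 05-1338 and 8 cycles for the other 13 H3K4 libraries.

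The members, the gene lists and the rule for named genes were chosen with earlier results of these data known. That rule took all 10 members, the other Polycomb genes in the 3 most and 3 fewest lists, those with an H3K27me3 peak, and the most similar gene per member more than 1 Mb away. Not every gene that this rule takes is reported here.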

Additional observations from a re-analysis of the deposited data

Results flagged for a closer look

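In 5 of 30 groups of member and target, the highest or lowest antibody stood apart from the others by Dixon's criterion. Chance flags about 1 group in 20 for unbounded values, a rate that does not apply to cover, which is bounded at 0% and 100%: in 3 of the 5 groups all other lists tied at 100%. In H3K4me2 lists, EMD Millipore 05-1338 gave 78.7% promoter cover at EZH1 and 80.3% at EED, against 100% in the other 3 lists in each case. In H3K4me3 lists, Abclonal A2357 gave 91.7% at SUZ12, where the next highest list gave 25.4%, and EpiGentek A-4033-050 gave 0% at RNF2, where the next lowest gave 55.7%. In H3K4me1 lists, Cell Signaling Technologies 5326 BF gave 39.6% at RNF2 against 100% in the other 4. No cause of these values was tested.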

How the results depend on the processing

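The count of genes called between H3K4me1 and H3K4me3 cover was 0 with 8-cycle libraries only, 4873 to 8786 with 1 antibody left out (4873 without 5326 BF) and 11686 in a window of 2.5 kb. Its split of higher and lower calls, 5531 and 2439, became 11431 and 255 in that window, 3960 and 3216 at 0.5 kb and 3897 and 3371 within AR16 libraries. Between H3K4me2 and H3K4me3 the count was 2576 in a window of 2.5 kb and 0 to 2429 with 1 antibody left out (2429 without ab8580). The flank minus core count was 4126 with 8-cycle libraries only and 9244 to 10612 with 1 antibody left out. The causes were not tested.

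Directions turned for single members as follows. H3K4me1 minus H3K4me3 cover was -0.51 points at RING1 with 8-cycle libraries, 82.5 at EED at the gene's 5′ end, -0.0699 at EZH1 and -32.3 at RING1 at 0.5 kb, 11.2 at EED and 12.8 at BMI1 at 2.5 kb, and -2.33 to 5.55 at RING1 with 1 antibody left out (-2.33 without 39635). H3K4me2 minus H3K4me3 cover was 0.14 at EED and -9.43 at BMI1 within AR16 libraries, 16.4 at KDM6B with peaks at or above the list median, 69.3 at EED at the 5′ end and -5.27 at RING1 at 0.5 kb. At 2.5 kb it was 15.6 at EZH2, 23.8 at EED and 3.67 at KDM6B. With 1 antibody left out it was -17.4 to 15.9 at KDM6B, above 0 in 7 of those cases, and -2.79 to 3.80 at EED (3.80 without 05-1338). H3K4me1 minus H3K4me2 cover was 13.2 at EED at the 5′ end, and 8.87 at EZH1, 9.54 at RING1 and 0.61 at RNF2 at 2.5 kb. Flank minus core at EED was -17.1 at the 5′ end.

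In other member results 691 values kept direction and side of the threshold, 45 weakened and 15 strengthened. All 10 members kept an H3K27me3 peak under every window, overlap and start setting, and the list has no values to filter on. No paired analysis was possible because replicate numbers follow accession order and pair no antibodies. The adjusted p cannot be small unless many genes share the smallest exact p. Depth is unknown, and 1 H3K27me3 list gives no error.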
